A study of Mus musculus with 4 samples.

Results

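Whole popliteal lymph nodes (PLNs) from Advanced TNF-Tg mice were compared with whole WT PLNs by summing the Visium counts of every spot over tissue. Of 12976 genes tested, 5255 lay on the same side of WT on both Advanced capture areas, with the nearer area farther from WT than the Advanced areas were from each other, in UMIs (unique molecular identifiers, 1 per captured transcript) per 10000 UMIs of the area. These genes are called kept below, and they were chosen by the values described, so the kept counts are a description without a test. The rule's boundary runs through small differences: Tmed10, just inside it, had 2.11 UMIs per 10000 on the WT area and 1.63 and 1.87 on the Advanced areas, and Sec11c, just outside, had 3.78, 3.44 and 3.61.

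All mice were male and on a C57BL/6 background. The WT area held 10 PLNs of 5 wild-type mice aged 5.5 months. Each Advanced area held 6 PLNs of 3 TNF-Tg mice aged 8.5 to 9 months, and 1 further area, labelled Early, held 6 PLNs of 3 TNF-Tg mice aged 5.5 months. Early was no part of the comparison, and its values stand beside some results only as values. Evan's blue dye had been given into the hindpaw to find the nodes in all groups, 1 section was placed on each area, and the 4 areas were on 1 slide. All nodes of an area were summed together here, so the only spread measured was that between the 2 Advanced areas, and WT had 1 area. The paper selected the spots of single PLNs by hand, which was not done here, so spread between nodes or mice was not measured. Genotype and age cannot be told apart in this comparison. The label TNF-Tg could not be checked from the counts, because the counts have no separate entry for the transgene. Mouse Tnf had 18 UMIs on the WT area and 79 and 57 on the Advanced areas (0.0995, 0.234 and 0.178 per 10000, adjusted p = 0.345 by edgeR).

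TNF-Tg mice express TNF in excess and develop an inflammatory-erosive arthritis, and the PLN drains the ankle and hindpaw. Lymph enters a node under its capsule and passes through sinuses lined by lymphatic endothelium, where macrophages take up particles, dying cells and red cells. B cells sit in follicles around follicular dendritic cells, T cells in the paracortex, and antibody-secreting plasma cells mostly in the medullary cords. A whole-node sum mixes all of these, so fewer cells of a type and less RNA per cell cannot be told apart in any value below.

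The WT area had the fewest spots and the fewest UMIs in total. It had 833 spots and 1808678 UMIs (83.3 spots per PLN), against 2015 and 1782 spots and 3378219 and 3198238 UMIs on the Advanced areas (336 and 297.0 spots per PLN). Edge spots, those with fewer than 6 neighbours over tissue, held 79.3% of the WT UMIs but 47.9% and 64.5% of the Advanced UMIs, and the 50 deepest spots held 50.5% of the WT UMIs and 29.6% and 26.9% of the Advanced UMIs. Values within edge and interior spots are given for a part of the named genes, and counts of calls in both kinds of spot close the account. The label of a lymph node held: Ptprc, Cd79a, Ms4a1, Cd3e, Ccl21a and Cr2 had at least 107 UMIs in every area, and their summed level was 27.5 UMIs per 10000 on WT and 30.8 and 30.5 on Advanced. Of the keratinocyte markers, Krt5 and Krt14 were at 0 in all areas, while Krt10 had 15 UMIs on WT and 49 and 40 on Advanced. The 4 skeletal muscle markers (Acta1, Ckm, Myh4, Mylpf) had 11 UMIs together on WT and 48 and 61 on Advanced.

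By the quasi-likelihood test of edgeR, with p-values adjusted across all genes after Benjamini and Hochberg, 278 genes were called (2.14%): 99 genes were higher in Advanced (0.763% of those tested) and 179 were lower (1.38%). At an unadjusted p under 0.05, 1401 genes passed (10.8%). Among all genes tested, 40.5% were kept, 26.3% as higher and 14.2% as lower. Both Advanced areas were above WT for 6283 genes (48.4%) and below WT for 3267 (25.2%). DESeq2 called 13 higher (0.1%) and 29 lower (0.223%), each of which edgeR had also called in the same direction. The test had 1 residual degree of freedom and took its variance from all genes together, so a gene whose Advanced areas differed widely got no larger error than others, and 32 called genes were not kept. With library totals in place of TMM factors the split of calls turned over, to 165 higher and 131 lower. The median log2 ratio of all genes was 0.125 on the UMIs per 10000 scale and 0.017 after TMM, so fold changes below are TMM-scaled log2 values with their SE, and levels are UMIs per 10000.

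**Figure D1:**
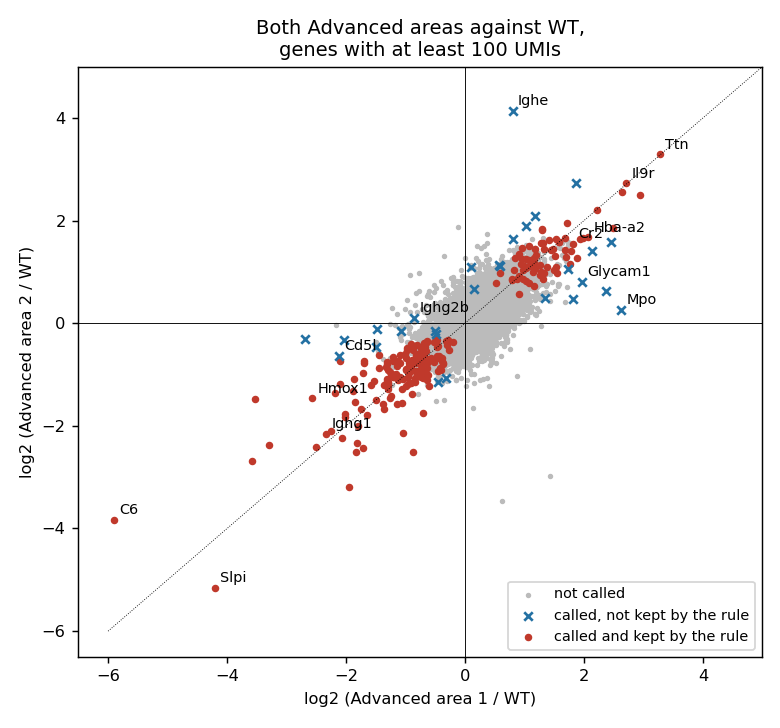
Log2 ratio of Advanced area 1 to WT (x axis) against that of Advanced area 2 to WT (y axis) for the 9586 genes with at least 100 UMIs over the 3 areas; each point is a gene, red points were called by edgeR and kept, blue crosses were called and not kept, and the dotted line marks equal ratios. Slpi and C6 lie far down on both axes, while Ighe (0.0221 UMIs per 10000 on WT, 0.0385 and 0.391 on Advanced) rests on Advanced area 2 and Mpo on Advanced area 1.

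Among kept genes with at least 100 UMIs over the 3 areas, Slpi had the smallest ratio of Advanced to WT. The gene encodes a secreted inhibitor of neutrophil serine proteases. It had 10504 UMIs on the WT area and 1063 and 522 on the larger Advanced areas, that is 58.1 UMIs per 10000 on WT and 3.15 and 1.63 on Advanced. The Advanced mean was 2.39 ± 1.07 (SD, n = 2), and WT was 24.3 times that mean (log2 fold change -4.71, SE 0.13, adjusted p = 8.07e-271 by edgeR and 5.31e-07 by DESeq2). Slpi (chr2:164354070-164389095 on GRCm38, minus strand) was detected in 77.2% of WT spots with at least 500 UMIs and in 27.4% and 27.5% of such Advanced spots. It was low in edge spots (52.4 on WT, 3.58 and 1.32 on Advanced) and in interior spots (79.9, 2.75 and 2.20) alike. With robust variance shrinkage, which lets single genes keep their own variance, edgeR no longer called Slpi (adjusted p = 0.457), while both Advanced areas remained far below WT. The Early area had 1.17 UMIs per 10000.

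Ighg1, the constant region gene of IgG1, was the heavy chain gene that separated the groups. It had 83.0 UMIs per 10000 on WT and 16.5 and 18.6 on Advanced, 17.6 ± 1.5 (SD, n = 2), and WT was 4.73 times the Advanced mean (log2 fold change -2.35, SE 0.11, adjusted p = 3.25e-96 by edgeR, 4.57e-21 by DESeq2). Both Advanced areas were below WT in edge spots (69.0 against 20.4 and 14.6) and in interior spots (136.7 against 12.9 and 25.9). Ighg1 made up 19.4% of the UMIs of the 8 heavy chain constant genes on WT and 5.50% and 3.98% on Advanced (2.61% on Early).

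The other heavy chain genes did not part the groups in this way. Ighg2b, for IgG2b, had 181.0 UMIs per 10000 on WT and 99.6 and 194.6 on Advanced, so the Advanced areas straddled WT. EdgeR called it lower (log2 fold change -0.40, SE 0.09, adjusted p = 0.000359), and the call was lost with robust shrinkage (adjusted p = 0.949), with library totals (adjusted p = 0.217) and in DESeq2. Ighm, for IgM, had 71.7 on WT and 79.6 and 114.4 on Advanced (log2 fold change 0.33, adjusted p = 0.0428 by edgeR, 0.209 with robust shrinkage). Ighg2c had 71.9 on WT and 79.5 and 112.5 on Advanced and was not called (adjusted p = 0.0735). Ighg3 had 7.80 on WT and 8.37 and 16.7 on Advanced, and its call (log2 fold change 0.58, adjusted p = 0.00632) rested on Advanced area 2, since without that area the fold change was -0.03. Of the 8 heavy chain genes, 3 were called higher, 2 lower, and Ighg1 alone was kept and called by DESeq2. Ighg2b and Ighg2c are close paralogs, so the split of their reads is uncertain.

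**Figure D2:**
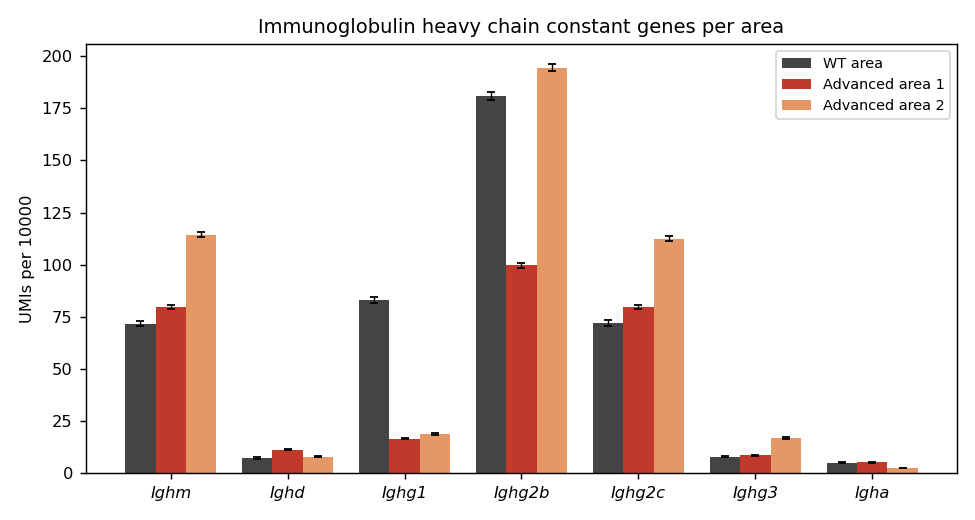
UMIs per 10000 of 7 heavy chain constant genes (x axis) on the WT area and the 2 Advanced areas; bars are area values and error bars are 95% Poisson intervals, which cover counting error only. Ighg1 falls from 83.0 on WT to 16.5 and 18.6 on Advanced, and for Ighg2b the Advanced bars stand on both sides of WT.

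As a whole-area ratio, Ighg2b over Ighm was 2.52 on WT (95% exact interval 2.47 to 2.58) and 1.25 (1.23 to 1.27) and 1.70 (1.68 to 1.72) on Advanced. The Advanced mean was 1.48 ± 0.317 (SD, n = 2), below WT by more than the gap between the Advanced areas, and the difference was not tested. The ratio was 3.55 on WT in interior spots against 1.21 and 1.42, and 2.33 in edge spots against 1.30 and 1.92. Early had 0.524.

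Among plasma cell and secretory genes, those that passed were lower. Of 16 plasma cell genes, 3 were called lower and none higher (4 kept as lower, 2 as higher, median log2 ratio -0.03 against 0.125 over all genes tested). The J chain gene Jchain had 15.3 UMIs per 10000 on WT and 9.79 and 12.1 on Advanced (log2 fold change -0.59, SE 0.14, adjusted p = 0.00179), and Fkbp11, which encodes a folding helper of secretory cells, had 0.426 on WT and 0.207 and 0.0969 on Advanced (-1.59, SE 0.31, adjusted p = 6.42e-05). Creld2, a gene induced by stress of the endoplasmic reticulum, was called lower as well (1.44, 0.885 and 0.797, adjusted p = 0.00166). Xbp1, the transcription factor of the secretory program, had 2.64 on WT and 1.67 and 2.35 on Advanced and was not called (adjusted p = 0.165). Of 17 genes of folding and secretion in the endoplasmic reticulum, 13 were below WT on both Advanced areas (25.2% of all genes tested were), 9 were kept as lower, 4 were called lower and none was called higher, with a median log2 ratio of -0.34. The 4 were the chaperones Hsp90b1 (8.11 on WT, 5.93 and 4.28 on Advanced), Hspa5 (6.77, 5.03 and 4.21) and Calr (5.87, 4.37 and 3.18) and the stress-response factor Manf (2.26, 1.63 and 1.46). DESeq2 called none of the 16 plasma cell and 17 folding genes, of which 3 and 5 had an unadjusted p under 0.05. The kappa light chain gene Igkc was also lower (368.2 on WT, 265.5 and 292.2 on Advanced, log2 fold change -0.51, adjusted p = 3.91e-09), and the lambda gene Iglc2 was higher (7.75, 11.1 and 13.3, log2 fold change 0.55, adjusted p = 0.0141); DESeq2 called neither.

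Genes of sinus and tissue macrophages were among the lower genes. Of 18 macrophage genes, 7 were called lower and 1 higher, 8 were kept as lower and 2 as higher, and the median log2 ratio was -0.45. Marco, a scavenger receptor of sinus macrophages that also marks medullary lymphatic endothelium, had 30.4 UMIs per 10000 on WT and 16.6 and 21.2 on Advanced (log2 fold change -0.79, SE 0.12, adjusted p = 3.92e-08). Adgre1, which encodes F4/80, had 1.1 on WT and 0.352 and 0.319 on Advanced (-1.82, SE 0.23, adjusted p = 8.43e-13), and Mrc1, the mannose receptor gene, had 2.18, 0.882 and 0.997 (-1.32, SE 0.19, adjusted p = 3.27e-09). These 2 were the ones DESeq2 also called (adjusted p = 0.000766 and 0.00419). Siglec1, Stab1, Msr1 and Cd5l were the other genes called lower, and Cd5l was not kept because its Advanced areas were 0.876 and 2.46 beside 3.83 on WT. Csf1r, the receptor for the macrophage growth factor CSF1, had 3.65 on WT and 3.58 and 4.46 on Advanced (adjusted p = 0.976), and Cd68 had 2.01, 1.37 and 1.68 (adjusted p = 0.190).

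Over the macrophage list the median log2 fold change was -0.74 in edge spots and -0.07 in interior spots. In edge spots Marco had 32.5 UMIs per 10000 on WT and 11.9 and 18.3 on Advanced (log2 fold change -1.20, adjusted p = 0.000579 by edgeR), and in interior spots 21.9 on WT and 20.9 and 26.4 on Advanced (0.03, adjusted p = 0.997). Mrc1 had 2.31 on WT and 0.606 and 0.785 on Advanced in edge spots, and 1.69, 1.14 and 1.38 in interior spots. The log2 fold change of Adgre1 was -2.1 in edge spots and -0.9 in interior spots. Of the 18 genes, 6 were called lower in edge spots, where 1.02% of genes were, and none in interior spots, where 0.215% were; 12 had an unadjusted p under 0.05 in whole areas by edgeR and 6 by DESeq2. The difference between edge and interior was not tested. Edge spots held 79.3% of the WT UMIs, so interior sums had fewer WT counts for a call. Without the 50 deepest spots of each area, 1 of the 18 was called lower, and Marco had 20.6 on WT and 18.5 and 19.8 on Advanced (adjusted p = 0.936).

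**Figure D3:**
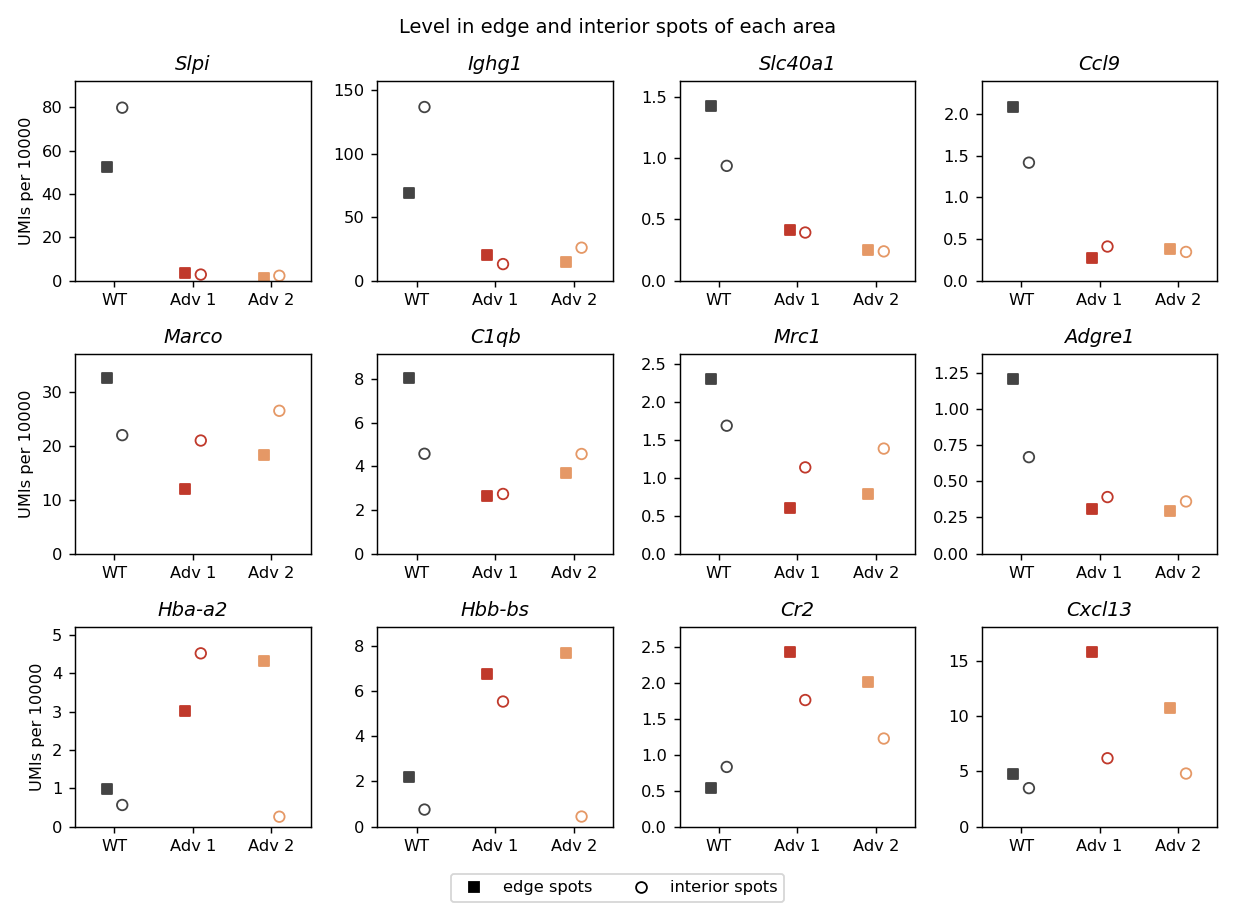
UMIs per 10000 of 12 genes (y axes from 0) in edge spots (filled squares) and interior spots (open circles) of the WT area and the 2 Advanced areas; each point is 1 area. Slpi, Ighg1, Slc40a1 and Ccl9 are below WT in both kinds of spot, Marco is below WT on both Advanced areas in edge spots and on either side of WT in interior spots, and for Hba-a2 and Hbb-bs the interior spots of Advanced area 2 lie below WT while those of area 1 lie far above.

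Among the 15 kept genes with the smallest ratio of Advanced to WT, several are made by macrophages or related myeloid cells. The C-type lectin gene Cd209f had 1.22 UMIs per 10000 on WT and 0.124 and 0.235 on Advanced (log2 fold change -2.88, SE 0.24, adjusted p = 1.78e-29). Cbr2, a carbonyl reductase gene, had 0.990 on WT and 0.0829 and 0.153 on Advanced (-3.18, SE 0.27, adjusted p = 3.15e-29). The CC chemokine genes Ccl9 (1.95 on WT, 0.343 and 0.369 on Advanced, -2.56, adjusted p = 1.37e-30) and Ccl6 (2.18, 0.459 and 0.510, -2.28, adjusted p = 2.73e-26) lie next to each other on chromosome 11 and fell by like amounts. Fcna, for ficolin A, Clec4a2, a lectin receptor gene, Wfdc17, a gene with a protease inhibitor domain, and Apol7c were between 0.481 and 2.88 on WT and between 0.0414 and 0.811 on Advanced. Nnat, for the membrane protein neuronatin (0.332, 0.0947 and 0.0657, -2.15, adjusted p = 2.16e-06), and Gja1, a gap junction gene (0.542, 0.133 and 0.153, -2.03, adjusted p = 3.96e-09), completed the named low genes. Without the 50 deepest spots, Cd209f, Cbr2, Ccl9, Wfdc17 and Apol7c were still called by edgeR, and Ccl6 (adjusted p = 0.493), Fcna (adjusted p = 0.746), Clec4a2 (adjusted p = 0.316) and Gja1 (adjusted p = 0.324) were not, while Nnat was. In interior spots Cbr2, Fcna, Clec4a2, Nnat and Gja1 were not called. DESeq2 called Cbr2, Cd209f, Ccl9, Ccl6, Clec4a2, Wfdc17, Apol7c and Gja1, and gave Fcna and Nnat no adjusted p.

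**Figure D4:**
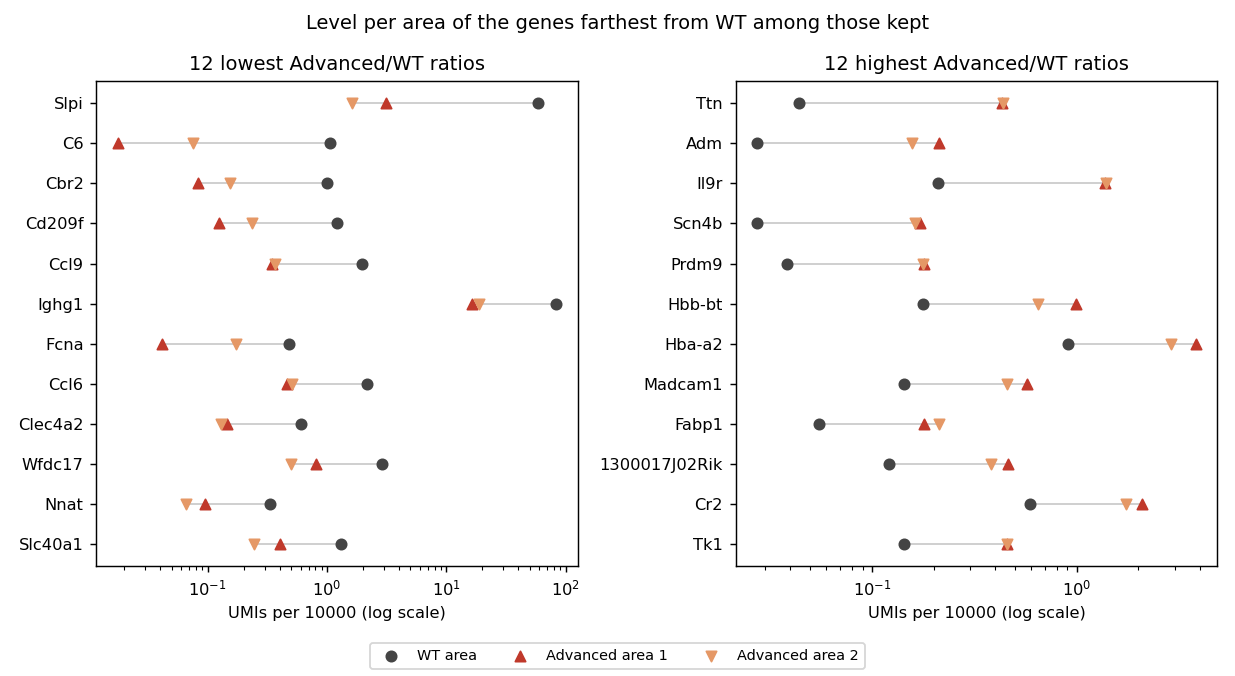
UMIs per 10000 (log axis) on the WT area (circles) and the 2 Advanced areas (triangles) for the 12 kept genes with the smallest and the 12 with the largest ratio of the Advanced mean to WT, among kept genes with at least 100 UMIs. Slpi goes from 58.1 on WT to 3.15 and 1.63, and Il9r from 0.210 to 1.37 and 1.39.

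Complement genes were lower in part. Of 13 tested, 6 were called lower and none higher, 8 were kept as lower and 2 as higher, and the median log2 ratio was -0.45. The 3 chains of C1q, the recognition molecule of the classical pathway, are encoded side by side on chromosome 4. C1qa had 5.26 UMIs per 10000 on WT and 2.27 and 3.16 on Advanced (log2 fold change -1.06, SE 0.17, adjusted p = 5.36e-08), C1qb had 7.33, 2.68 and 4.01 (-1.24, SE 0.16, adjusted p = 3.88e-12) and C1qc had 6.44, 2.57 and 3.59 (-1.17, SE 0.16, adjusted p = 2.18e-10). The 3 genes thus fell by like amounts, with Advanced area 1 the lowest for each. In interior spots C1qb was 4.58 on WT and 2.73 and 4.57 on Advanced and was not called (adjusted p = 0.891), nor were C1qa and C1qc. DESeq2 called C1qa (adjusted p = 0.0380) and C1qc (adjusted p = 0.00860) but not C1qb (adjusted p = 0.849). The C5a receptor gene C5ar1 (0.343, 0.0947 and 0.119) and C4b (5.67, 4.13 and 4.18) were among those called lower by edgeR. C6, a component of the membrane attack complex that was outside this list, was named by its ratio: it had 193 UMIs on WT and 6 and 24 on the deeper Advanced areas, or 1.07 per 10000 on WT and 0.0178 and 0.0750 on Advanced (-4.64, SE 0.30, adjusted p = 4.97e-49 by edgeR, 0.212 by DESeq2).

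The promoter windows of C1qb and C1qc, 2 genes that were lower together, are shown with the core GAGGAA, a sequence recognised by the myeloid factor PU.1, in capitals on either strand. The windows run from 250 bases before to 50 after the transcript start and come from RefSeq on GRCm38.p6 (chr4:136886151-136886450 and chr4:136892865-136893164, both read from the minus strand). Each holds 1 match, on the sense strand at -30 in C1qb and on the antisense strand (TTCCTC) at -193 in C1qc. Of 27025 promoters of the same length, 28.3% hold the core, so a match is a description and not a binding site.
C1qb: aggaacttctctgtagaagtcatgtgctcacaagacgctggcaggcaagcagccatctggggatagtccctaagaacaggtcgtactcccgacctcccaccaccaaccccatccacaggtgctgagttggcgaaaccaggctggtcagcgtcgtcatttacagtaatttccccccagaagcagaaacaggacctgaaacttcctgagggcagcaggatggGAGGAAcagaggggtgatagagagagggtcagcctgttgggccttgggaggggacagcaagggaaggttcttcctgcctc
C1qc: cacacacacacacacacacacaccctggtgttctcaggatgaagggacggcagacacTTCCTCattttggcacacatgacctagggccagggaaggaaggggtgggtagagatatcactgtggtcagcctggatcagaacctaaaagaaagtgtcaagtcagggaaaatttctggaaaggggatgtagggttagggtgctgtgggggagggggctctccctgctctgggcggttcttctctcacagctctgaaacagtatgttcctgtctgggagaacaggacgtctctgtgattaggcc

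Genes of iron and heme handling, a task of macrophages that take up red cells, followed. Of 12 tested, 8 were kept as lower (14.2% of all genes tested were) and none as higher. Among the 12, 4 were called lower by edgeR (1.38% of all genes tested were) and 1 by DESeq2. The median log2 ratio of the list was -0.47, against 0.125 over all genes tested. Slc40a1, which encodes the iron exporter ferroportin, had 1.32 UMIs per 10000 on WT and 0.403 and 0.244 on Advanced (log2 fold change -2.14, SE 0.22, adjusted p = 6.07e-19 by edgeR, 8.10e-05 by DESeq2). It was below WT in edge spots (1.42, 0.414 and 0.247) and in interior spots (0.937, 0.392 and 0.238). Hmox1, for the heme-degrading enzyme heme oxygenase 1, had 3.57 on WT and 0.604 and 1.30 on Advanced (-2.01, SE 0.18, adjusted p = 1.01e-24), and its call was lost with robust shrinkage (adjusted p = 0.218), in DESeq2 and in interior spots (-0.97 against -2.32 in edge spots, adjusted p = 0.179). The ferritin genes differed: Ftl1, the light chain, had 24.8 on WT and 14.8 and 17.8 on Advanced (-0.71, SE 0.13, adjusted p = 4.40e-06), and Fth1, the heavy chain, had 49.3, 48.7 and 42.4 and was not called (-0.22, adjusted p = 0.439). The transferrin gene Trf was called lower (5.96, 3.71 and 4.56, adjusted p = 0.00644). In interior spots Ftl1 and Trf were not called (-0.36 and -0.02).

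Of 13 lipid-handling genes of macrophages tested, 3 were called lower and none was called higher. By the rule 3 were kept as lower and 2 as higher, with a median log2 ratio of -0.12. The 2 kept as higher were Gpnmb (0.0940 UMIs per 10000 on WT, 0.160 and 0.156 on Advanced) and Cd9 (1.16, 1.675 and 1.62), and neither was called. The cathepsin gene Ctsb had 21.3 UMIs per 10000 on WT and 13.6 and 13.1 on Advanced (log2 fold change -0.78, SE 0.13, adjusted p = 5.34e-07 by edgeR), and neither DESeq2 (adjusted p = 0.0714) nor edgeR without the 50 deepest spots (adjusted p = 0.691) called it. Ctsb had 23.1 on WT and 12.9 and 12.7 on Advanced in edge spots, and 14.3, 14.2 and 13.8 in interior spots, where it was not called (-0.10, adjusted p = 0.988). Lpl, for lipoprotein lipase, had 1.81, 1.06 and 1.17 (-0.81, SE 0.20, adjusted p = 0.00344 by edgeR, 0.551 by DESeq2). Apoe, for the lipid carrier apolipoprotein E, was called (72.4 on WT, 51.8 and 62.7 on Advanced, adjusted p = 0.00163) but not kept. The lysozyme genes went the other way. Lyz1 had 3.20 on WT and 7.12 and 7.56 on Advanced (1.09, SE 0.17, adjusted p = 2.75e-08), and Lyz2, the lysozyme gene of macrophages and neutrophils and the 1 macrophage list member called higher, had 23.4, 43.7 and 34.8 (0.64, SE 0.12, adjusted p = 2.83e-05). DESeq2 called Lyz1 (adjusted p = 0.00289) and not Lyz2 (adjusted p = 0.560), and edgeR called both in edge spots and neither in interior spots or without the 50 deepest spots. The 2 genes are close paralogs, and reads shared between them were not resolved here.

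Lymphatic endothelium, mast cells and matrix also gave lower genes. Of 12 lymphatic endothelial genes, Lyve1, a hyaluronan receptor gene (3.15 UMIs per 10000 on WT, 1.15 and 2.05 on Advanced, log2 fold change -1.08, SE 0.18, adjusted p = 5.18e-07), Mmrn1 (0.956, 0.539 and 0.613) and Flt4, for the receptor of VEGF-C (1.44, 0.897 and 1.02), were called lower and none higher. DESeq2 called none of them, and neither did edgeR without the 50 deepest spots or in interior spots, where Lyve1 had 2.25 on WT and 1.11 and 2.26 on Advanced. The lineage factor Prox1 had 0.210 on WT and 0.243 and 0.219 on Advanced. Of the 12 genes, 5 were kept as lower and 2 as higher, with a median log2 ratio of -0.27. Of 12 blood endothelial genes 1 was called: Cldn5, a tight junction gene, had 3.81 on WT and 1.85 and 1.80 on Advanced (-1.17, SE 0.18, adjusted p = 1.12e-08 by edgeR, 0.00290 by DESeq2). It was called in edge spots (-1.31) and not in interior spots (-0.56, adjusted p = 0.771). The blood endothelial list as a whole was not lower: Pecam1 and Cdh5 were kept as higher, Cldn5 alone as lower, and the median log2 ratio was 0.02. Of 10 mast cell genes, 3 protease genes were called lower and none higher: Tpsb2 (0.868 on WT, 0.388 and 0.438 on Advanced), Cma1 (1.37, 0.770 and 0.901) and Mcpt4 (1.44, 0.906 and 0.882). By the rule 5 of the 10 were kept as lower and 2 as higher, with a median log2 ratio of -0.64. Tpsab1, another mast cell protease gene, was above WT on both Advanced areas (0.0774, 0.0888 and 0.219) and was not called. Of 17 collagen and matrix genes, the proteoglycan genes Dcn (6.66, 4.34 and 3.95) and Lum (1.13, 0.672 and 0.582) and the fibronectin gene Fn1 (1.08, 0.633 and 0.682) were called lower, and no collagen gene was. Lum was 1.21 on WT and 0.587 and 0.509 on Advanced in edge spots, and 0.803, 0.750 and 0.714 in interior spots. None of these mast cell and matrix genes was called in interior spots. DESeq2 called none of the 6 mast cell and matrix genes that edgeR called lower.

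All 5 red cell genes were called higher in whole areas and kept, with a median log2 ratio of 1.89. The alpha-globin gene Hba-a2 had 163 UMIs on WT and 1283 and 922 on Advanced, or 0.901 per 10000 against 3.80 and 2.88 (log2 fold change 1.78, SE 0.21, adjusted p = 5.11e-15 by edgeR, 3.19e-06 by DESeq2). Hba-a1 had 0.724 on WT and 2.08 and 2.26 on Advanced, and the beta-globin genes Hbb-bs (1.91, 6.12 and 5.10) and Hbb-bt (0.177, 0.989 and 0.644) were higher by 1.45 (SE 0.18) and 2.09 (SE 0.29) on the log2 scale. DESeq2 called the 4 globin genes. Alas2, the erythroid enzyme of heme synthesis, had 0 UMIs on WT and 27 and 23 on Advanced, at least 4.58-fold higher against a floor of 3 UMIs in the WT area. The globin genes were above WT in edge spots on both Advanced areas (Hbb-bs 2.21 on WT, 6.76 and 7.67 on Advanced). In interior spots the rise belonged to Advanced area 1: Hbb-bs had 5.53 on Advanced area 1, above 0.749 on WT, and 0.441 on Advanced area 2, below it, and Hba-a2 had 0.562, 4.52 and 0.256. EdgeR's interior calls of these genes therefore rest on 1 area. Early had 7.46 for Hbb-bs and 3.23 for Hba-a2.

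The globin promoters are shown because these genes rose together and because their copies limit the counting. CACCC, the box bound by erythroid Krüppel-like factors, and AGATAA, a site form of GATA factors, are in capitals; both strands were searched (GGGTG and TTATCT are the reverse complements). Among 27025 promoters, 56.7% hold CACCC and 11.4% hold AGATAA. Other site forms of GATA factors were not searched for, so a window without AGATAA may hold one. The windows are chr11:32283422-32283721 and chr11:32296242-32296541 on the plus strand and chr7:103827879-103828178 and chr7:103813874-103814173 on the minus strand (RefSeq, GRCm38.p6).
Hba-a1: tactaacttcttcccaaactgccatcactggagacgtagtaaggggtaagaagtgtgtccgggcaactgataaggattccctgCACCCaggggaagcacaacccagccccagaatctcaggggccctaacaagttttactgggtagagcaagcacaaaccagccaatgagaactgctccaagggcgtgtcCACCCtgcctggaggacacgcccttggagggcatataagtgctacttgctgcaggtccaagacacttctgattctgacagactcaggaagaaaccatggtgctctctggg
Hba-a2: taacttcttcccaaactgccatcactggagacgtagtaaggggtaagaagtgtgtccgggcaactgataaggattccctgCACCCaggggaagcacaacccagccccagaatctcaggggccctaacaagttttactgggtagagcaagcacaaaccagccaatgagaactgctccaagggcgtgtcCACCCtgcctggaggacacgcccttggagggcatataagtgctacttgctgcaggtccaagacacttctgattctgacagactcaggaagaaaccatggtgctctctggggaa
Hbb-bs: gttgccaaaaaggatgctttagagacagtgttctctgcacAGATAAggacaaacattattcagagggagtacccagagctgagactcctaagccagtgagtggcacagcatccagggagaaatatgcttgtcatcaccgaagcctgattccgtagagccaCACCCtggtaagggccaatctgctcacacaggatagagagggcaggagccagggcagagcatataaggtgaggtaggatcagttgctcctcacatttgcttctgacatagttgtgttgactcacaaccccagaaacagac
Hbb-bt: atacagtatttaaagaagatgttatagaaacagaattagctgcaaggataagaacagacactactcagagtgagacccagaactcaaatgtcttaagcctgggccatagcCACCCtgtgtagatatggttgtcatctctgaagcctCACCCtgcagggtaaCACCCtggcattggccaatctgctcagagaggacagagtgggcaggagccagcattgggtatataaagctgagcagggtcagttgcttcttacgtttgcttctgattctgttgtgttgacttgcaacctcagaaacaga
Shifted by 3 bases, the windows of Hba-a1 and Hba-a2 are identical at all 297 compared positions, and those of Hbb-bs and Hbb-bt match at 168 of 299 (56.2%) when shifted by 1. Each alpha-globin window holds CACCC at 2 positions and no AGATAA, Hbb-bs holds 1 of each, and Hbb-bt holds CACCC at 3 positions. Reads of such near-identical genes may be split or dropped between copies, so the split between Hba-a1 and Hba-a2 is uncertain.

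B cell genes lay mostly above WT. Of 14 tested, 12 were above WT on both Advanced areas (48.4% of all genes tested were), 9 were kept as higher and none as lower, 3 were called higher, and the median log2 ratio was 0.55. Cr2, for complement receptor CD21 of B cells and follicular dendritic cells, had 0.592 UMIs per 10000 on WT and 2.08 and 1.73 on Advanced, 1.91 ± 0.247 (SD, n = 2) (log2 fold change 1.58, SE 0.23, adjusted p = 9.34e-10 by edgeR, 0.000557 by DESeq2). The B cell kinase gene Blk (0.735 on WT, 1.43 and 1.75 on Advanced, 1.00, adjusted p = 0.000535) was also called by edgeR and not by DESeq2 (adjusted p = 0.274). Ms4a1, for CD20, had 2.07 on WT and 2.90 and 2.44 on Advanced and was not called (adjusted p = 0.696). In edge spots 5 of the list were called higher (0.423% of all genes tested there), and in interior spots none (0.125%). Cr2 had 0.530 on WT and 2.43 and 2.01 on Advanced at the edge, and 0.829, 1.76 and 1.22 in the interior.

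Genes of follicular stroma gave a like picture. Of 10 tested, 7 were kept as higher and 1 as lower, 3 were called higher and 1 lower, and the median log2 ratio was 0.62. Cxcl13, the chemokine that draws B cells into follicles, had 4.49 UMIs per 10000 on WT and 10.8 and 8.65 on Advanced (log2 fold change 1.01, SE 0.16, adjusted p = 7.32e-08 by edgeR, 0.0158 by DESeq2), beside 24.1 on Early. Clu, for clusterin, had 17.3, 34.1 and 31.5 (0.81, SE 0.13, adjusted p = 5.36e-08 by edgeR), and Madcam1, an adhesion molecule of marginal reticular and sinus-lining cells, had 0.144, 0.571 and 0.456 (1.73, SE 0.33, adjusted p = 2.26e-05 by edgeR). DESeq2 called neither Clu nor Madcam1. The member that fell was Vcam1, an adhesion molecule also made by sinus macrophages and endothelium, with 5.76 on WT and 3.04 and 3.22 on Advanced (-0.99, SE 0.16, adjusted p = 4.29e-07 by edgeR, 0.0168 by DESeq2). In interior spots none of the 10 was called: Cxcl13 had 3.48 on WT and 6.19 and 4.80 on Advanced there, and 4.75, 15.8 and 10.8 in edge spots. None of 6 tested germinal centre genes was called by edgeR or DESeq2, with 2 and 0 at an unadjusted p under 0.05.

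Genes of T cells lay mostly below WT. Of 23 tested, 19 were below WT on both Advanced areas (25.2% of all genes tested were), 10 were kept as lower and none as higher, 2 were called lower, and the median log2 ratio was -0.30. Trac, the constant gene of the T cell receptor alpha chain, had 1.92 UMIs per 10000 on WT and 1.17 and 1.01 on Advanced (log2 fold change -0.92, SE 0.20, adjusted p = 0.000289), and Cd3e, of the CD3 complex, had 1.11, 0.619 and 0.647 (-0.91, SE 0.22, adjusted p = 0.00236). Both stayed called without the 50 deepest spots, and neither was called by DESeq2 (adjusted p = 0.254 and 0.588). Cd6 had 0.420 on WT and 0.349 and 0.331 on Advanced (adjusted p = 0.657). The 1 member above WT on both Advanced areas was Cd4 (1.19, 1.43 and 1.86), which was not called and was named after its values were seen. The T zone chemokine genes Ccl19 (4.83, 3.57 and 4.23, adjusted p = 0.239) and Ccl21a (12.2, 9.63 and 9.83, adjusted p = 0.0820) did not pass. Of 12 dendritic cell genes, 2 chemokine genes of migrating dendritic cells were called lower by edgeR: Ccl22 (0.531 on WT, 0.124 and 0.235 on Advanced, -1.67, SE 0.29, adjusted p = 1.63e-06) and Ccl17 (0.265, 0.0326 and 0.0719, -2.45, SE 0.44, adjusted p = 4.68e-06). DESeq2 called neither. By the rule 5 of the 12 were kept as lower and 1 as higher, with a median log2 ratio of -0.32.

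**Figure D5:**
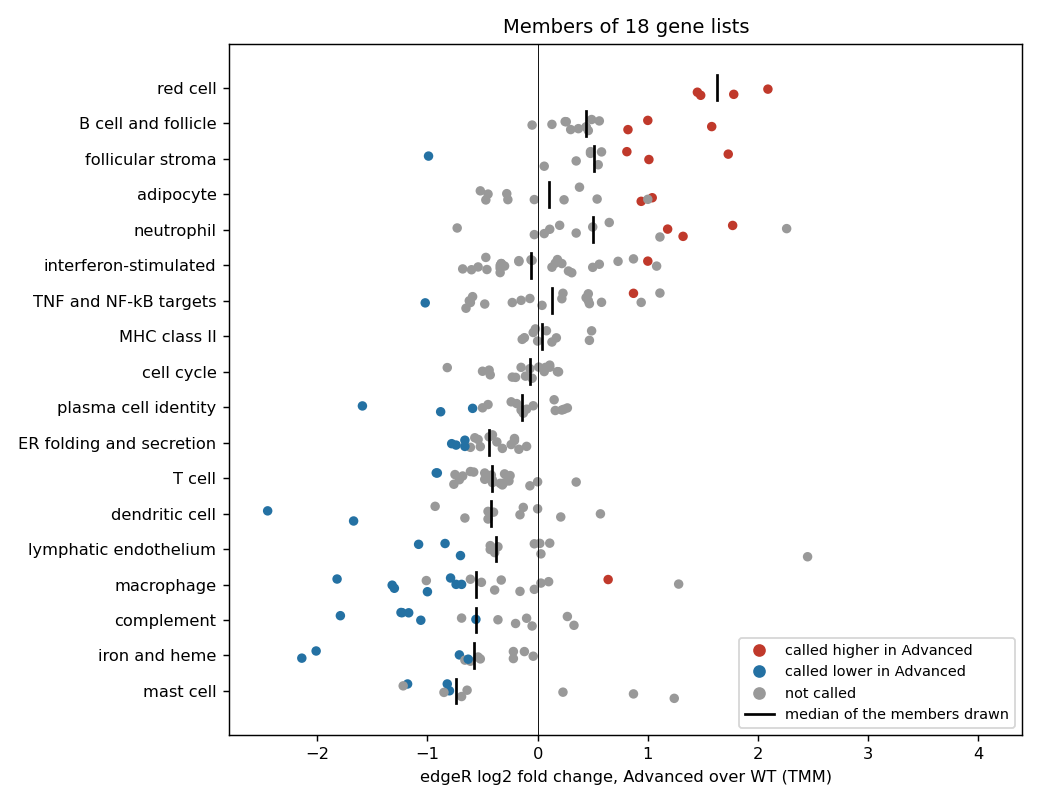
EdgeR log2 fold change of Advanced over WT (x axis) for the tested members of 18 gene lists (rows); points are genes, red if called higher, blue if called lower and grey if not called, and bars are medians. Members with 0 UMIs on WT, such as Alas2, are not drawn. The red cell points lie between 1.45 and 2.09, and the macrophage, complement, iron and heme, and mast cell medians lie below 0.

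Apart from globin and follicle genes, the kept genes with the largest ratios were a mixed set. Il9r, the receptor for the cytokine IL-9, had 38 UMIs on WT and 462 and 445 on Advanced, or 0.210 per 10000 against 1.37 and 1.39, and its Advanced areas nearly coincided (log2 fold change 2.60, SE 0.27, adjusted p = 1.59e-18 by edgeR, 4.81e-08 by DESeq2). Il9r was above WT in edge spots (0.160, 1.27 and 1.31) and in interior spots (0.401, 1.46 and 1.54), and Early had 1.05. Ttn, for the giant muscle protein titin, had 8 UMIs on WT and 145 and 139 on Advanced (0.0442, 0.429 and 0.435 per 10000, 3.17, SE 0.44, adjusted p = 1.86e-10). Skeletal muscle markers were higher as well in whole areas. Of 7 muscle list members, all were above WT on both Advanced areas, as were 48.4% of all genes tested. None was called (4 had an unadjusted p under 0.05 by edgeR and 0 by DESeq2). The 4 defining markers together had 0.0608 per 10000 on WT and 0.142 and 0.191 on Advanced. In interior spots Ttn had 0 on WT and 0.335 and 0.388 on Advanced. The median log2 fold change of the muscle list was -0.06 in interior spots and 2.66 in edge spots. The part of the muscle markers in the Ttn result was not tested. On Early, Ttn had 0.349 per 10000, and Ckm and Myh4 were at 0. Tk1, a thymidine kinase gene of dividing cells, was called higher (0.144, 0.459 and 0.457, adjusted p = 0.000367), while none of 17 cell cycle genes was called by edgeR or DESeq2 (1 and 0 at an unadjusted p under 0.05). Adm, Scn4b, Prdm9, Fabp1 and 1300017J02Rik were called higher with 5 to 22 UMIs on WT, and none of these 5 was called without the 50 deepest spots or by DESeq2. Adamdec1 and Kynu, with 8 and 9 UMIs on WT, were not called.

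Of inflammatory genes, few passed after adjustment. Of 27 interferon-stimulated genes, 6 had an unadjusted p under 0.05 (10.8% of all genes did), 9 were kept as higher and 6 as lower, and Usp18 alone was called (0.232 UMIs per 10000 on WT, 0.577 and 0.422 on Advanced, log2 fold change 1.00, adjusted p = 0.0388). Of 20 TNF and NF-kB targets, 12 had an unadjusted p under 0.05 by edgeR (10.8% of all genes did) and 3 by DESeq2. By the rule 6 were kept as higher and 4 as lower, with a median log2 ratio of 0.24 beside 0.125 over all genes. Of these 20, the acute-phase gene Saa3 was called higher (0.741, 1.87 and 1.05, adjusted p = 0.00617, not kept, 5.38 on Early) and the cytokine gene Il1b lower (0.663, 0.305 and 0.400, adjusted p = 0.00369). Ccl20 had 0.149 on WT and 0.334 and 0.360 on Advanced (adjusted p = 0.0600). Of 13 neutrophil genes, the granule genes Camp (0.276, 0.915 and 0.572), Ltf (0.177, 0.622 and 0.244) and Mpo (0.0442, 0.272 and 0.0531) were called higher and none was kept, with Advanced area 1 the higher each time. The summed neutrophil markers were 4.77 on WT and 8.48 and 4.65 on Advanced. The high endothelial venule mucin gene Glycam1 was called (2.56, 9.98 and 4.47, 1.38, adjusted p = 8.43e-13) and not kept, and lost its call with robust shrinkage (adjusted p = 0.862).

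No gene of antigen presentation was called. None of 10 MHC class II and none of 9 MHC class I genes was called by edgeR or DESeq2 (2 and 1 at an unadjusted p under 0.05 by edgeR, 0 and 0 by DESeq2), with median log2 ratios of 0.15 and 0.21 beside 0.125 over all genes. The pan-leukocyte gene Ptprc had 5.16 UMIs per 10000 on WT and 6.29 and 6.35 on Advanced (adjusted p = 0.775). No mitochondrial gene of 12 was called by either tool (4 and 0 at an unadjusted p under 0.05), and of 83 cytosolic ribosomal protein genes 3 were called lower (Rplp1, Rps27l and Rps29) and none higher. Of 8 cytotoxic and NK cell, 5 T zone, 9 smooth muscle and 10 early response genes, none was called by edgeR or DESeq2 (2, 2, 0 and 4 at an unadjusted p under 0.05 by edgeR, 0 in each by DESeq2). Of 4 Schwann cell genes, 1 was called lower and none higher. Adipocyte genes gave 2 calls of 12, both higher: the desaturase gene Scd1 (2.83, 5.43 and 6.27, log2 fold change 0.94, adjusted p = 1.08e-05) and Retn, for resistin (0.276, 0.518 and 0.707, adjusted p = 0.0124). Both were called in edge spots, and neither in interior spots or without the 50 deepest spots. Fat markers Adipoq, Plin1, Cidec and Fabp4 summed to 5.71 on WT and 5.96 and 9.51 on Advanced, none of the 4 was called, and none was at 0; their part in the Scd1 and Retn results was not tested.

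Fewer genes passed within one kind of spot. Of the 278 called genes, 267 could be tested in both edge and interior spots, and 255 of these had the same sign of fold change in both. Whole-area sums are made of these same spots, so agreement in sign or call was in part set by the selection and is no separate support. In edge spots 153 were also called, in interior spots 32, and in both kinds of spot 22. Of the 22, 18 also had both Advanced areas beyond the rule's margin in both kinds of spot, 15 lower and 3 higher; the 4 that did not were the globin genes. The lower ones were Slpi, Ighg1, C6, Cd209f, Ccl9, Ccl6, Slc40a1, Wfdc17, Apol7c, Ccl22, the lectin gene Clec4n, the thrombomodulin gene Thbd, Ddit4, Galnt18 and the lambda variable gene Iglv1. The higher ones were Ttn, Il9r and the adhesion receptor gene Adgre4. Clec4n, Thbd, Ddit4, Galnt18, Iglv1 and Adgre4 were named after their values were seen. Clec4n had 4.65 UMIs per 10000 on WT and 1.15 and 1.37 on Advanced (log2 fold change -2.0, SE 0.18, adjusted p = 1.93e-26), Thbd had 1.56, 0.554 and 0.557 (-1.60, SE 0.21, adjusted p = 7.58e-12), and Adgre4 had 0.287, 0.858 and 0.866 (1.47, SE 0.27, adjusted p = 6.18e-06). Without the 50 deepest spots of each area, 30 genes were called higher (0.240%) and 49 lower (0.392%), 66 of them among the 278. In that setting the calls fell to 1 of 16 plasma cell genes, 0 of 17 folding genes, 2 of 12 iron and heme genes, 2 of 13 complement genes, 0 of 12 lymphatic endothelial genes and 2 of 10 mast cell genes, all lower, and to 2 of 14 B cell genes, both higher.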

How the data were processed

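Spatial transcriptomics (Visium) had been run on 4 areas of PLN tissue, and the WT and Advanced areas were compared. Per the labels, the authors used Space Ranger 1.1.0 on mm10 (GRCm38) to make the deposited UMI counts of each gene in each spot; Seurat 4.0.3 and R 4.1.1 are named as well, and the counts are not normalized. Spots flagged as over tissue were summed per area. Genes were tested with edgeR 4.0.16 (filterByExpr, TMM, quasi-likelihood, adjusted p under 0.05) in R 4.3.3, on 32287 features of which 12976 passed, with DESeq2 1.42.0 as an alternative. The edgeR script was tested on simulated counts drawn in every area with the spread that the fit had estimated. That run cannot check whether single genes or the WT area vary as the fit assumes. Gene positions come from GENCODE vM21. Intervals are 95% and cover counting error only. Named genes are those the study turned on, the 15 kept genes with the largest and the 15 with the smallest ratio (at least 100 UMIs, no immunoglobulin variable segment), and up to 4 members per list by size of ratio; others are said to be chosen after their values were seen. The members and lists were chosen with earlier results of these data known. The ribosomal list takes genes by name, and 8 Rps6k kinase genes in it are left out of the count given. Ero1b, Mx1 and Mx2 were not analysed here, and a few genes that the rule names are not reported here. Replicates are areas, each summed over the nodes of several mice.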

Additional observations from a re-analysis of the deposited data

Results flagged for a closer look

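Apoe and Fcgr3, both called lower in whole areas, had both Advanced areas below WT in edge spots and both above WT in interior spots; the difference was not tested. Apoe had 77.8 UMIs per 10000 on WT and 50.1 and 61.1 on Advanced at the edge, and 51.2 on WT and 53.3 and 65.5 on Advanced in the interior. Fcgr3, for a low-affinity IgG Fc receptor, had 1.49 on WT and 0.501 and 0.518 on Advanced at the edge, and 0.535, 0.557 and 0.555 in the interior, where the areas barely differ. The mean of the Advanced areas minus WT in interior spots was 8.22 UMIs per 10000 for Apoe and 0.0208 for Fcgr3. With 1 or 2 areas in a group, single areas could not be checked for standing apart.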

How the results depend on the processing

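The main test called 99 genes higher and 179 lower. Library totals gave 165 higher, interior spots 14 and 24 lower, edge spots 50 higher, and DESeq2 13 and 29. The sums without the 50 deepest spots, an alternative chosen after seeing the data, gave 30 and 49. The cause of these shifts was not tested. On WT the 580 interior spots had a median of 140.5 UMIs, and the 253 edge spots had a median of 3166. RLE factors, no immunoglobulin genes, no filter, all 4 areas, spots with at least 500 UMIs and robust shrinkage (also chosen after seeing the data) stayed within 1.5 times both counts. Of the 278 genes, 275 had the same sign without Advanced area 2 and 277 without Advanced area 1. The fold change of Ighg2b was 0.01 when area 1 of Advanced was left out and -0.99 when area 2 was, that of Ighg3 was -0.03 without Advanced area 2, and that of Marco was 0.03 in interior spots. Ighg2b over Ighm on WT was 3.55 in interior spots, 2.33 in edge spots and 2.72 without the deepest spots. Its Advanced mean was 1.25 to 1.70 with 1 area left out. The kept counts stayed within 1.5 times of 3416 and 1839 under the 7 settings tried, but of these genes only 1537 and 799 were also kept in interior spots. No paired analysis was possible because WT had 1 area and replicate numbers only name areas. WT had the fewest UMIs in total and sets the precision of low genes.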
